A study of Mus musculus with 18 samples.

Results

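The comparison of microglia with astrocytes from Atxn2-CAG100-KIN mice rested on 6 of the 18 small RNA libraries of the study, 3 of each cell fraction. All 6 came from mice with a C57BL/6 background that were homozygous for the knock-in (KIN), an expanded CAG repeat placed in the mouse Atxn2 gene as a model of spinocerebellar ataxia type 2, at an age of 10 months. Of 53395 RNA features with at least 1 count in these libraries, the 4570 with at least 5 counts in at least 2 libraries were compared, and they are described by the RNA class that the deposited table gives them. The other 12 libraries held KIN neurons and the same 3 fractions of wild-type (WT) mice, of which WT microglia and WT astrocytes enter 1 comparison near the end.

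Each fraction was a magnetic enrichment and not a pure cell type. Microglia were pulled from a dissociated brain with beads against CD11b, astrocytes from what remained with beads against ACSA-2, and the flow-through, cleared of non-neuronal and endothelial cells, served as neurons. A value is relative to the counts of its own library, that is a share of the small RNA of a fraction, and fewer cells of a type cannot be told apart from less RNA per cell.

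Small noncoding RNAs differ strongly between brain cell types. MicroRNAs (miRNAs) are cut from hairpin precursors by Drosha and Dicer into arms named 5p and 3p, and they guide Argonaute to messenger RNAs mainly through the seed near their 5′ end. Small nucleolar RNAs (snoRNAs) are released from introns of host transcripts and guide chemical modification of ribosomal RNA, while transfer RNAs (tRNAs), Y RNAs and spliceosomal RNAs serve translation, RNA quality control and splicing. Microglia, the macrophages of the brain, share miRNAs such as miR-142, miR-223 and miR-146a with blood myeloid cells, whereas miR-9, miR-124 and miR-219 mark neural progenitors and astroglia, neurons and oligodendrocytes.

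Leading miRNAs of the comparison are shown with their mature RefSeq sequences (table build GRCm38.p6), written 5′ to 3′ with the seed, bases 2 to 8, in capitals. Those higher in microglia, among them the pair miR-146a-5p and miR-146b-5p with a shared seed and both arms of the miR-142a hairpin, were:
mmu-miR-146a-5p: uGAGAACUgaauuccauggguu
mmu-miR-146b-5p: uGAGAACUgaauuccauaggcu
mmu-miR-142a-3p: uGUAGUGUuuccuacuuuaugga
mmu-miR-142a-5p: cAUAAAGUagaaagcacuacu
mmu-miR-223-3p: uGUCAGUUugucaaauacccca
mmu-miR-342-3p: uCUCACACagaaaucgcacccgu

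Those higher in astrocytes, with both arms of the miR-9 hairpins, were:
mmu-miR-219a-5p: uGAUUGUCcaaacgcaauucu
mmu-miR-219b-3p: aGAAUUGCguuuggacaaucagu
mmu-miR-9-5p: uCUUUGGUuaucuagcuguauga
mmu-miR-9-3p: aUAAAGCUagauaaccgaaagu
mmu-miR-384-5p: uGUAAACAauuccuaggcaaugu
mmu-miR-100-5p: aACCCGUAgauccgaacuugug

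Some families held members that differed in opposite directions although the seed was the same. They are shown here so that the bases after the shared seed can be compared, and why the directions differ was not tested. miR-92a-3p and miR-16-5p are listed with their families but did not pass the thresholds given below:
mmu-miR-25-3p: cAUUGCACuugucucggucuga
mmu-miR-92a-3p: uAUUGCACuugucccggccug
mmu-miR-92b-3p: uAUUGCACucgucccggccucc
mmu-miR-15a-5p: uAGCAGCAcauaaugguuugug
mmu-miR-16-5p: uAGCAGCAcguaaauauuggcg
mmu-miR-195a-5p: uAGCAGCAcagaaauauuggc
mmu-miR-497a-5p: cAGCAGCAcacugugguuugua
mmu-miR-204-5p: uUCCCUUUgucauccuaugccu
mmu-miR-211-5p: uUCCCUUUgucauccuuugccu

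The 6 libraries held between 3148211 and 4316748 counts, and their 10 most abundant features took 9.75% to 11.9% of them. The log2 levels correlated across features at 0.98 to 0.993 within microglia, 0.985 to 0.99 within astrocytes and 0.879 to 0.905 between the fractions. Microglia replicate 1 stood apart from its group, with counts on 13941 features against 20324 and 19667, and with smaller shares of miRNA and tRNA, so values that rest on it are also given without it. Xist had 4 or 5 counts in replicate 1 and 44 to 83 in replicates 2 and 3 of both fractions. The study states that 2 mutant and WT pairs were male and 1 was female. The labels give no sex, and the fits did not take sex into account. Xist was high in 2 of these 3 replicates, and how that relates to the stated sexes was not resolved.

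Of the 4570 features, 1611 passed an adjusted p of 0.05 and a log2 fold change of 1 in edgeR's quasi-likelihood test with Benjamini-Hochberg adjustment, which is 35.3% of those tested. In microglia 642 were higher (14.0%) and 969 lower (21.2%). These thresholds define the words higher and lower from here on, both read as microglia relative to astrocytes, and levels are CPM, counts brought to a common library total, with the TMM scaling of that fit. At an unadjusted p of 0.05 there were 2289. Leaving out microglia replicate 1 gave 685 higher and 1064 lower of 4517.

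The share of features past the thresholds varied by RNA class. Of 447 mature miRNAs 99 were higher and 166 lower (59.3%), and of 288 hairpins 63 and 110 (60.1%). Protein-coding fragments stood at the background, with 184 and 240 of 1191 (35.6%). A share of 25.4% of the 331 tRNA gene copies, 19.7% of the 299 typed snoRNAs and 15.9% of the 82 typed small nuclear RNAs passed. Mitochondrial tRNAs passed in 18 of 22, each of them lower, and tRNA copies leaned the other way, with 65 higher and 19 lower.

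**Figure D1:**
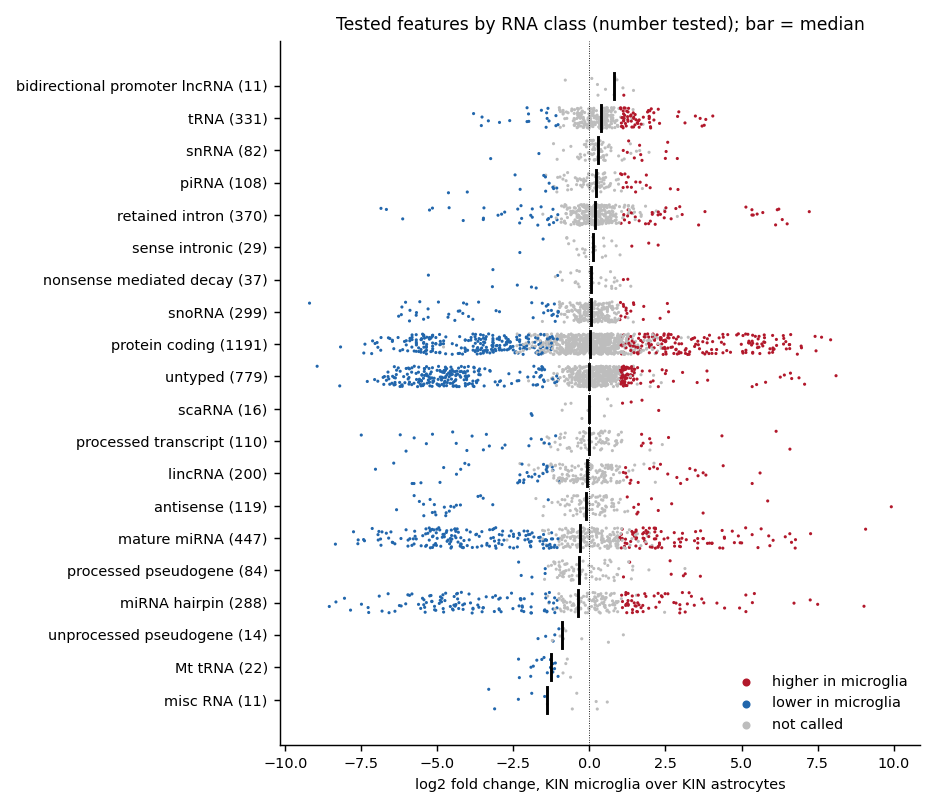
Log2 fold change, KIN microglia over KIN astrocytes (horizontal axis), of each tested feature in the RNA classes with at least 10 (rows, with the number tested), with features higher in red, lower in blue and not past the thresholds in grey, and a bar at each median. Mature miRNAs spread to both sides, with 99 higher and 166 lower of 447, untyped features form a separate lower group, and all 22 mitochondrial tRNAs lie below 0.

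The shares of all counts taken by each class moved less than its members. Transfer RNA took 14.0%, 15.7% and 16.6% of the counts in microglia against 11.9%, 12.4% and 12.1% in astrocytes. Mitochondrial tRNA took 1.98% ± 0.11 (SD, n = 3) in microglia and 5.47% ± 0.43 in astrocytes. Those groups did not overlap, nor did those of piRNA (5.84% ± 0.63 against 4.43% ± 0.04), processed transcripts (3.89% ± 0.08 against 3.26% ± 0.01) and lincRNA (1.17% ± 0.06 against 1.39% ± 0.10). Mature miRNA took 5.86%, 8.46% and 8.36% in microglia and 10.4%, 9.13% and 8.43% in astrocytes, which overlapped. Of the 12 classes with at least 1% of the counts 5 did not overlap, each with the smallest two-sided p that an exact permutation test of 3 against 3 can give, 0.1, and an adjusted p of 0.24. Without microglia replicate 1 the number was 9 of 12.

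Fragments of messenger RNA were few in these libraries. To compare them with the labels of the fractions, transcripts were summed per gene, a fit that called 36.6% of 5030 genes and features, 13.4% higher and 23.2% lower. All 14 tested genes of a microglia list of 15 were higher, but each had at most 3 counts in every astrocyte library and passed the filter through microglia alone, so the direction of that count was fixed. Summed over the list, the level was 90.9 to 127 CPM of library total in microglia, 1.34 to 1.75 in astrocytes and 2.06 to 4.27 in KIN neurons. The protease gene Ctss had 29, 61 and 79 counts in microglia and 0 in each astrocyte library, at least 17.8-fold more. The astrocyte list of 15 genes summed to 9.08 to 11.8 in microglia, 175 to 233 in astrocytes and 25.5 to 43.7 in neurons, and 14 genes were lower, 13 of them with at most 3 counts in every microglia library, with Slc1a2, the main glutamate transporter, at 2, 5 and 4 counts against 159, 137 and 144 (log2 fold change -5.33 ± 0.34 SE). Glul was the exception at -0.42 ± 0.32. Since most of these genes had 3 counts or fewer per library in the lower fraction, the fitted medians of 5.89 for the microglia list and -5.33 for the astrocyte list become 3.05 and -3.54 once such genes are set to their bound. Itgam encodes CD11b and Atp1b2 the ACSA-2 antigen, the proteins used for sorting.

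Markers of other cells moved with the fractions. The 10 oligodendrocyte genes summed to 1.59 to 2.78 CPM of library total in microglia, 20.1 to 22.3 in astrocytes and 4.94 to 6.40 in KIN neurons, and the 5 tested were all lower, 3 of them with at most 3 counts in every microglia library. The 15 neuronal genes summed to 1.91 to 3.71 in microglia, 7.53 to 9.67 in astrocytes and 22.7 to 42.5 in neurons, and only Map2 passed the filter (1, 3 and 0 counts against 16, 16 and 17), while Stmn2 was at 0 in the 6 libraries. Pericyte genes summed to at most 0.463 in microglia and 2.96 to 5.53 in astrocytes. Mrc1, a marker of border macrophages, had 14, 18 and 16 counts in microglia and 0 in astrocytes. Of 5 haemoglobin and erythroid genes none passed the filter and Hba-a1, Hba-a2 and Hbb-bt were at 0. Of 7 endothelial genes only Pecam1 and Bsg passed the filter. Pecam1, with 85, 355 and 230 counts against 177, 47 and 120, overlapped and carried most of the list's sum, while Bsg was lower (1, 4 and 7 against 17, 10 and 17, -1.91 ± 0.49). The part of these other cells in the differences described next was not tested.

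miR-146a-5p, a brake on Toll-like receptor signalling, showed the largest difference of the miRNAs higher in microglia. It had 10590, 13034 and 13108 CPM in microglia and 22.9, 26.8 and 18.2 in astrocytes. The lowest microglia library stood far above the highest astrocyte library, at a log2 difference of 9.08 ± 0.25 SE (edgeR adjusted p = 4.4e-10). The mature sequence lies at chr11:43265262-43265283 on the minus strand of GRCm39, in the hairpin Mir146, whose own row differed by 9.03. Its seed relative miR-146b-5p was far less abundant, with 167, 262 and 243 CPM against 31.7, 26.8 and 25.7 (log2 fold change 3.00).

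miR-142a-3p, a miRNA of the blood lineages, had 2988, 5070 and 4537 CPM in microglia and 22.1, 40.1 and 19.5 in astrocytes. No library overlapped at a difference of 7.27 ± 0.35 (edgeR adjusted p = 1.53e-08). It lies in Mir142 at chr11:87647729-87647751 on the plus strand. The other arm, miR-142a-5p, differed by 6.59, with 228, 215 and 212 CPM against 1.30, 4.52 and 1.03. miR-142b is annotated on the opposite strand and shares 20 positions with miR-142a-3p, and because counting used no strand their reads cannot be told apart.

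miR-223-3p, a regulator of granulocytes and macrophages encoded on the X chromosome (chrX:95286490-95286511), had 320, 612 and 409 CPM in microglia and 4.42, 4.52 and 3.33 in astrocytes, a log2 fold change of 6.76 ± 0.32. miR-342-3p, from an intron of Evl, was even among microglia libraries at 1584, 1511 and 1587 CPM against 54.6, 61.0 and 35.4 (4.95 ± 0.24). miR-511-3p, whose hairpin lies within Mrc1, had 42.8, 45.5 and 40.9 CPM in microglia and at most 1.13 in astrocytes. All 3 stood apart from the astrocyte libraries without overlap.

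Over the whole myeloid list, 13 of 15 tested miRNAs were higher, with a median log2 fold change of 5.00 against 0.05 over all features, or 3.00 with the 3 miRNAs that had no more than 3 counts per astrocyte library set to their bound. miR-155-5p, induced in activated macrophages, differed by 2.94 (52.3 ± 13.6 against 6.81 ± 2.28 CPM). miR-21a-5p, common to many activated cells, differed by 1.53, with 2402, 4533 and 3796 CPM against 1436, 1064 and 1215. The exceptions were miR-132-3p, an activity-regulated miRNA that was lower (-1.62), and miR-150-5p, a lymphocyte miRNA, at 0.42 ± 0.31. The summed myeloid list came to 16210 to 25722 CPM of library total in microglia, 1389 to 1918 in astrocytes and 1001 to 1580 in KIN neurons.

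**Figure D2:**
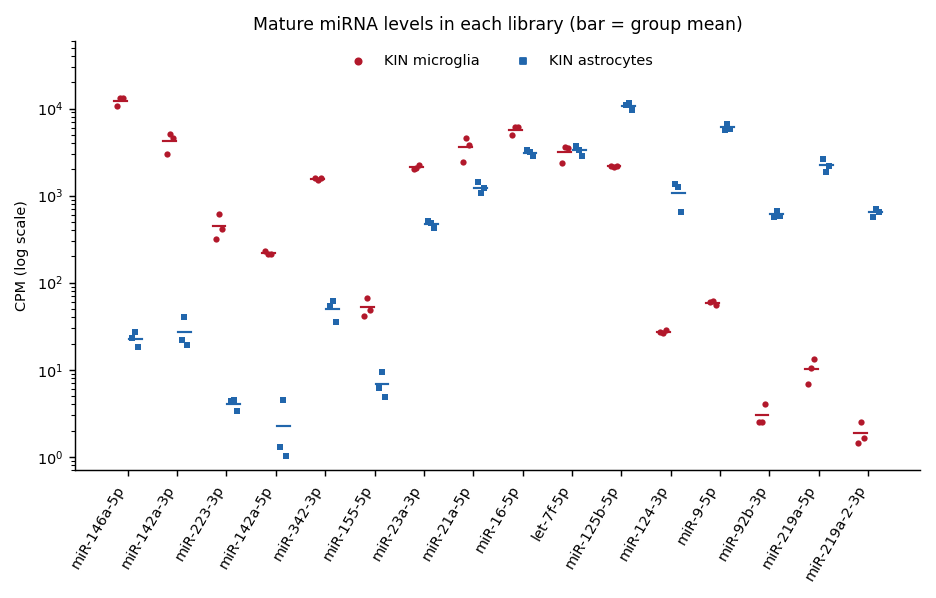
Levels of leading miRNAs in the 3 KIN microglia and 3 KIN astrocyte libraries, as CPM on a log10 axis with 1 point per library (red circles microglia, blue squares astrocytes) and a line at each group mean. miR-146a-5p lies between 10590 and 13108 CPM in microglia and 18.2 and 26.8 in astrocytes, and miR-9-5p lies between 55.3 and 61.9 in microglia and above 5700 in astrocytes.

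Among miRNAs lower in microglia, miR-9-5p, which promotes neural differentiation, was the most abundant of the large differences. It had 60.2, 61.9 and 55.3 CPM in microglia and 5700, 6578 and 5885 in astrocytes, a difference of -6.68 ± 0.19 on the log2 scale (edgeR adjusted p = 4.4e-10). The opposite arm miR-9-3p differed by -6.95. The 5p sequence is encoded 3 times, in Mir9-1, Mir9-2 and Mir9-3 on chromosomes 3, 13 and 7, and the reads do not tell the copies apart. KIN neurons held 3052, 1668 and 2368 CPM of library total for miR-9-5p.

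The oligodendrocyte list included the most negative fold change of any mature miRNA. miR-219a-2-3p had 1.45, 2.54 and 1.66 CPM in microglia and 568, 703 and 651 in astrocytes, with no overlap at -8.35 ± 0.28 on the log2 scale (edgeR adjusted p = 1.26e-09). miR-219a-5p, which drives oligodendrocyte differentiation, had 6.89, 10.4 and 13.2 against 2651, 1866 and 2216 CPM (-7.76 ± 0.29), and miR-338-3p, a partner in that role, differed by -5.24. miR-219b-3p shares 21 positions with miR-219a-5p on the opposite strand of chromosome 2, so its 1125 CPM in astrocytes may be counted from either strand. All 6 tested members of the oligodendrocyte list were lower, with a median of -7.10, or -6.49 with 1 member at its bound. Their sum was 37.8 to 54.7 CPM of library total in microglia, 4497 to 6832 in astrocytes and 7.83 to 16.6 in KIN neurons. Microglia were also below astrocytes in the oligodendrocyte messenger RNAs given above, but the neurons were above microglia in those and below them in the miRNAs.

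The neuronal list was lower in 12 of 15 tested miRNAs, with a median of -4.23, or -3.74 with 2 members at their bound. miR-124-3p, the most abundant neuronal miRNA, had 26.8, 26.3 and 28.6 CPM in microglia and 1353, 1257 and 646 in astrocytes (-5.31 ± 0.30). miR-128-3p differed by -3.69 and miR-138-5p by -4.65. KIN neurons did not hold the highest level of this list, with 126 to 256 CPM of library total against 1329 to 2495 in astrocytes and 91.8 to 135 in microglia. miR-124-3p alone had 162, 73.3 and 88.3 CPM of library total in neurons.

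The neural and astroglial list was lower in 10 of 14 tested miRNAs, with a median of -2.13. miR-92b-3p, expressed in neural progenitors, had 2.54, 2.54 and 4.02 CPM in microglia and 571, 667 and 588 in astrocytes (-7.61 ± 0.26). miR-125b-5p was the most abundant miRNA of astrocytes, with 11081, 11465 and 9703 CPM against 2214, 2155 and 2190 in microglia, and a smaller log2 fold change of -2.30. miR-100-5p, which sits beside let-7a-2 on chromosome 9, differed by -6.46, with 1011 ± 33.9 CPM in astrocytes and 11.2 ± 4.65 in microglia. Its relative miR-99a-5p, on chromosome 16, had 1836 ± 221 CPM in microglia and 1531 ± 161 in astrocytes (0.26 ± 0.16).

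Broadly expressed families differed little or in few members. Of 9 let-7 miRNAs, let-7b-5p, let-7c-5p and let-7e-5p were lower and the list median was -0.20. let-7f-5p had 2386, 3601 and 3500 CPM in microglia and 3680, 3379 and 2881 in astrocytes, which overlapped (-0.07 ± 0.19). None of 5 miR-30 members, of the miR-221 family or of 3 erythroid miRNAs passed. miR-16-5p, high in both fractions at 5714 ± 699 and 3105 ± 261 CPM, missed the fold threshold with 0.88. Of the 9 members of the miR-17/92 paralog list 6 were higher, miR-18a-5p most with 2.36. Of the 4 miR-181 members 3 were lower, with miR-181b-5p at -1.95. Of the 5 vascular miRNAs 2 were lower (median -1.42, or -0.85 with bounds), and miR-126a-3p, an endothelial miRNA, had 99.0, 160 and 183 CPM against 307, 338 and 158 with overlap.

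The epithelial and ciliated list split in direction, with 5 higher and 4 lower of 10 and a median of 0.42, or -0.21 with 3 members at their bound. The miR-200 members were higher but scarce, with miR-200c-3p at 5.08, 9.47 and 7.33 CPM in microglia and at most 0.26 in astrocytes, at least 9.13-fold. The miR-34b and miR-34c arms, abundant in ciliated cells such as those of the ependyma and choroid plexus, were lower, with miR-34c-5p at 37.0, 46.0 and 60.3 CPM against 1562, 1798 and 1628 (-5.12 ± 0.23). The choroid plexus and ependymal genes of the marker list summed to 9.31 to 30.8 CPM of library total in microglia, 20.4 to 66.9 in astrocytes and 586 to 1017 in KIN neurons. On that scale miR-34c-5p had 11.5, 5.36 and 7.835 CPM in KIN neurons and 1747, 1774 and 1706 in astrocytes. The part of such cells in the miR-34b and miR-34c levels was not tested.

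Members of 1 seed family did not move together in every case. Of 54 seeds shared by 2 or more tested miRNAs, 25 had at least 2 members that passed, in 16 of them all in 1 direction, and 9 seeds had members in both directions. With the seed AUUGCAC, miR-25-3p was higher (1.55), miR-92a-3p did not pass (0.67) and miR-92b-3p was lower (-7.61). With AGCAGCA, miR-15a-5p (1.53) and miR-322-5p (2.99) were higher, and miR-195a-5p (-4.20) and miR-497a-5p (-4.02) were lower. With GGCAGUG, miR-34a-5p was higher (1.75) beside the lower miR-34b-5p (-4.77) and miR-34c-5p. With GUAAACA, miR-384-5p had 104, 100 and 88.2 CPM in astrocytes and no more than 3 counts in any microglia library, at least 117-fold, while miR-30e-5p of the same seed differed by -0.28.

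Pairs of near-identical sequence from different genes gave the clearest cases. miR-23a-3p (chr8:84935192-84935212) was higher, with 2026, 2089 and 2275 CPM against 512, 480 and 426 (2.17 ± 0.16), and miR-23b-3p (chr13:63448343-63448363) was lower, with 385, 366 and 391 against 825, 800 and 714 (-1.03 ± 0.16). miR-211-5p had 16.3, 11.3 and 16.3 CPM in microglia and 1.30, 0.28 and 0 in astrocytes (4.70 ± 0.59), and miR-204-5p had 323, 165 and 244 against 618, 422 and 488 (-1.06 ± 0.25). miR-351-5p was higher (2.17) with the seed of the lower miR-125a-5p and miR-125b-5p. Reads of such pairs can be split by the mapping, and the lower calls of miR-23b-3p and miR-204-5p lay close to the fold threshold.

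Neighbouring miRNAs mostly shared a direction. The cluster of Mir23a, Mir27a and Mir24-2 on chromosome 8 had 5 higher of 6 tested miRNAs (median 2.81, or 2.75 with bounds), and its copy with Mir23b, Mir27b and Mir24-1 on chromosome 13 had 0 higher and 1 lower of 5 (median -0.90). The Mir17 to Mir92-1 cluster on chromosome 14 had 8 higher of 10 (median 1.51, or 1.44 with bounds). The X-linked cluster of Mir322, Mir351, Mir503 and 4 neighbours had 7 higher of 10 (median 2.17, also with bounds). In these clusters some miRNAs had at most 3 counts in every astrocyte library, so their direction was fixed. They were 2 in the Mir23a cluster, 2 in the Mir17 cluster and 4 in the X-linked cluster. Mir34b and Mir34c on chromosome 9 gave 4 lower of 4. The Sfmbt2 cluster on chromosome 2, with 56 hairpins, gave 24 tested miRNAs, of which 1 was lower (median -0.03). The arms of a hairpin mostly went together. Of 149 arm pairs 67 had both arms past the thresholds, 22 higher and 45 lower, and none in opposite directions. In 37 pairs only 1 arm passed, and 10 of the 149 pairs had fold changes of opposite sign. The pairs are not independent. Some miRNAs, such as miR-138-5p, enter more than 1 pair, and opposite-strand hairpins such as Mir136 and Mir3071 are counted separately. Of the 447 mature miRNAs 108 had at most 3 counts in every library of 1 fraction, which fixed their direction.

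The imprinted region from Meg3 to Mirg on chromosome 12, a maternally expressed locus whose miRNAs are known from neurons, was lower as a block. All 46 tested miRNAs of its 32 hairpins (chr12:109506877-109715895) were lower, with a range of -7.14 to -2.15. Among them, miR-3071-5p and miR-3071-3p are annotated on the minus strand and share 19 and 20 positions with the arms of miR-136. Because counting used no strand, the reads of miR-3071 and miR-136 cannot be told apart. The median of -4.33 becomes -2.39 with bounds, because 36 of the 46 had no more than 3 counts in any microglia library, and a miRNA that passed the filter through astrocytes alone had to be lower. miR-127-3p, which is on the neuronal list, had 2.18, 5.08 and 4.49 CPM against 104, 122 and 64.6 (-4.57 ± 0.36). Summed per gene, the long noncoding hosts Rian (54, 112 and 117 counts against 1351, 1484 and 2375) and Meg3 (7, 4 and 5 against 18, 18 and 20) were lower as well. Transcripts of Rian contain snoRNA genes in their exons, so its sum may include reads that come from those snoRNAs.

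The snoRNAs of Snhg14, the paternally expressed host of the Prader-Willi locus known for expression in neurons, formed the largest single block of lower features. Its 206 snoRNA genes with any count in the study (chr7:58957672-59628040, minus strand) summed to 447, 391 and 491 counts in microglia and 12369, 10906 and 16354 in astrocytes. As CPM of library total this was 116 ± 25.7 against 3677 ± 681, a 31.8-fold difference of the means without overlap. KIN neurons held 8164, 6255 and 8210. Of the 206 genes 186 passed the filter and each was lower, with a median of -4.78, or -4.25 with the 93 genes that had no more than 3 counts per microglia library at their bound. Those 93 passed the filter through astrocytes alone and so had to be lower. These genes are repeats of a few near-identical sequences, so single copies are uncertain.

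The untyped class of the table held most of these genes. By GENCODE annotation, 213 of its 779 tested features were snoRNAs, with 1 higher and 180 lower. Rian hosts 7 further snoRNA genes with counts, which summed to 11, 16 and 33 in microglia and 443, 462 and 793 in astrocytes, 31.6-fold after scaling. The 321 tested snoRNAs outside both hosts gave 18 higher and 31 lower, with a median of 0.12. The 31 lower included Snord64 and Snord107 of the Prader-Willi locus and snoRNAs between Rian and Mirg in the chromosome 12 region. The latter were Gm23787 (-9.20), Gm25854 (-5.695), Gm23736 (-4.65), AF357428 (-4.425) and AF357341 (-4.14). Gm23787 had the most negative value of all tested features, with 19.5 ± 2.71 CPM in astrocytes and 0 in microglia, so its fold is a bound. Neuronal messenger RNAs and miR-124-3p also differed between the fractions, as given above, and their part in the imprinted block was not tested.

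**Figure D3:**
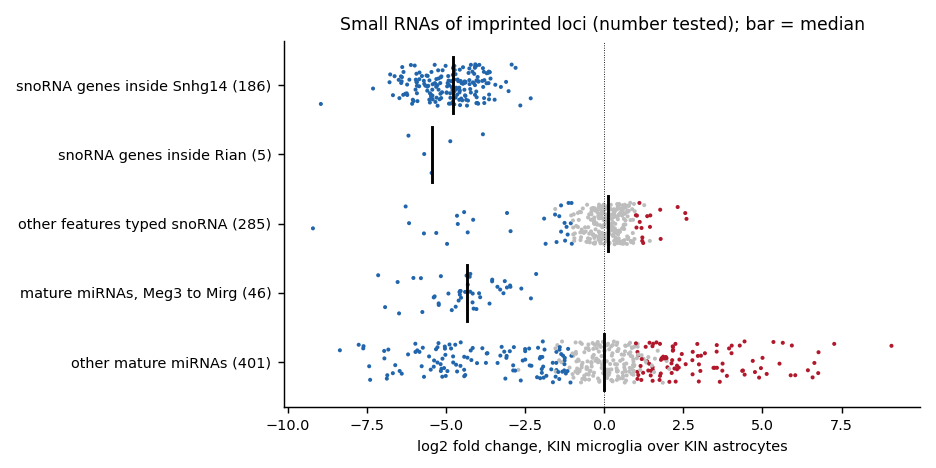
Log2 fold change, KIN microglia over KIN astrocytes, of the snoRNA genes inside Snhg14 and Rian, of the other features typed snoRNA in the table, of the mature miRNAs from Meg3 to Mirg and of the other mature miRNAs, 1 point per tested feature (blue lower, red higher, grey not past the thresholds) with a bar at each median. The 186 points of Snhg14 and the 46 of the chromosome 12 miRNAs all lie below 0, while the other snoRNAs and miRNAs spread to both sides. For 93 of the 186 and 36 of the 46 this direction was fixed, because they passed the filter through astrocytes alone.

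Outside the imprinted hosts a few snoRNAs stood out. Snord17, a large box C/D snoRNA on chromosome 2, was higher, with 5317, 4284 and 4550 CPM in microglia and 721, 835 and 776 in astrocytes (2.60 ± 0.17). Snord64 (7.62, 5.08 and 8.74 against 504, 611 and 542 CPM, -6.27 ± 0.26) and Snord107 (-5.30) belong to the Prader-Willi locus on chromosome 7 and were lower. Gm25107, an X-linked snoRNA gene, differed by -6.17, with 5.44, 3.00 and 4.73 CPM against 307, 293 and 334. The transcripts Gm38393-203 and Gm38393-201 contain Snord64 and Snord107 and had nearly the same values. A read of the shared sequence fits either row, so the rows cannot be told apart.

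Among small RNAs of RNA polymerase III and the ribozymes, 10 genes were tested and 1 was higher and 3 lower. Rny1, a Y RNA bound by the Ro protein, had the most negative value, with 816, 1167 and 1006 counts in microglia and 10803, 9803 and 9332 in astrocytes (-3.36 ± 0.17, edgeR adjusted p = 1.14e-08). Rny3 had 1192, 1338 and 1397 against 3766, 3581 and 3827 (-1.53), and Bc1, a dendritic RNA of rodent neurons, 10, 25 and 24 against 62, 64 and 62 (-1.75). The vault RNA gene Vaultrc5 went the other way, with 396, 1078 and 1089 counts against 137, 99 and 126 (2.71 ± 0.26). Rn7sk, the 7SK RNA that restrains transcription elongation, and Rmrp, the RNA of RNase MRP, differed by -0.10 ± 0.17 and 0.02 ± 0.15.

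Few spliceosomal RNAs passed. Of 7 tested genes of the major spliceosome 1 was higher, and of 4 for the minor spliceosome and histone pre-mRNA processing 2 were. Rnu7, the U7 RNA of histone 3′ ends, had 267, 289 and 236 CPM in microglia and 82.2, 91.2 and 79.0 in astrocytes (1.65 ± 0.18). Rnu4atac of the minor spliceosome had 104, 112 and 114 counts against 55, 42 and 46 (1.19). Rnu1b6, a U1 variant, had 77.6, 72.5 and 74.7 CPM against 13.8, 9.04 and 16.2 (2.52 ± 0.26), and the snRNA-type gene Gm22265 differed by 2.89. Of 57 untyped features annotated as rRNA, 39 were higher (median 1.10), a number that fell to 18 without astrocyte replicate 1 and to 21 with library totals in place of TMM scaling. These are repeated gene copies that can share reads, so single copies are uncertain. Summed, they had 23440 ± 982 CPM in microglia and 15436 ± 1051 in astrocytes, without overlap, at a log2 ratio of 0.60.

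Most tested piRNA entries with a sequence in the table shared it, or at least 25 bases of it, with other small RNAs. Of 108 tested piRNA entries 16 were higher and 11 lower, and 90 of them had a sequence in the table. Of those 90, 60 lay wholly inside an annotated small RNA or shared at least 25 bases with one, 5 higher and 7 lower, and 30 did neither, 5 higher and 1 lower. The small RNAs searched were those of GENCODE, without nuclear tRNAs, so the 30 may still match other known RNAs. The 4 named entries that lie wholly inside an annotated RNA are shown from the deposited table, with no base marked:
mmu-piR-67265: ggctggtccgaaggtagtgagttatctcaa
mmu-piR-68767: agctggtgttgtgaatcaggccgtt
mmu-piR-11876: caccaagatgagtggtgcaaatctgatc
mmu-piR-67196: gtaggtgaacctgcggaaggatcatta

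The first of these lies inside Rny1 and had 99.8, 100 and 86.0 CPM in microglia against 1616, 1627 and 1379 (mmu-piR-67265, -4.02 ± 0.18), beside -3.36 ± 0.17 for that gene. mmu-piR-68767 lies inside the hairpin Mir138-1 and had 3.63, 5.77 and 3.55 CPM against 113, 110 and 105 (-4.64), beside -4.65 for miR-138-5p. mmu-piR-11876 lies inside Snord17 and differed by 2.66, beside 2.60 for that snoRNA. mmu-piR-67196 lies inside an 18S ribosomal RNA gene and had 459, 1060 and 986 CPM against 216, 210 and 202 (2.00 ± 0.27). The reads of these entries cannot be told apart from those of the annotated RNAs that hold the sequences.

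Transfer RNA was compared by isodecoder, the sum of gene copies with 1 amino acid, anticodon and family number, in a fit that called 35.9% of its features. Of 178 isodecoders 36 were higher and 17 lower, with a median of 0.33. With library totals in place of TMM scaling the numbers were 31 and 23 (median 0.16), and without astrocyte replicate 1 they were 26 and 18. All 6 tryptophan isodecoders were higher (median 2.70), as were 5 of 10 for glycine (1.17), 5 of 16 for leucine and 5 of 10 for valine, with none lower. Most of the lower ones were found for threonine (6 of 14, median -0.95), alanine (5 of 21, with 1 higher) and arginine (3 of 19). Methionine (tRNA-Met-CAT-3, -2.60) and lysine had 1 lower each, and isoleucine had 1 lower and 1 higher. Fragments and whole tRNAs were not told apart.

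The higher tRNAs were uneven within microglia. tRNA-Trp-CCA-1 had 46.5, 425 and 599 CPM in microglia and 23.2, 28.1 and 25.9 in astrocytes, so that replicate 1 lay near the astrocytes (3.80 ± 0.66, edgeR adjusted p = 5.58e-04). tRNA-Gly-ACC-1 had 34.8, 196 and 177 against 6.71, 10.4 and 7.12 (4.08 ± 0.54), and tRNA-iMet-CAT-3, an initiator tRNA, 76.9, 407 and 741 against 37.4, 56.4 and 43.2 (3.16 ± 0.58). tRNA-Cys-GCA-1 had 148, 1361 and 1746 against 128, 162 and 134 and overlapped (2.94 ± 0.61). Without microglia replicate 1 the values were 4.31 ± 0.17 for tRNA-Trp-CCA-1, 4.52 ± 0.19 for tRNA-Gly-ACC-1, 3.65 ± 0.24 for tRNA-iMet-CAT-3 and 3.45 ± 0.14 for tRNA-Cys-GCA-1, and 40 isodecoders were higher and 21 lower of 177. Of the 36 higher isodecoders 33 were also higher without it, and so were all 17 lower ones in their direction.

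Of the lower tRNAs, tRNA-Ala-TGC-6 had 12.8, 13.7 and 12.6 CPM in microglia and 131, 165 and 158 in astrocytes (-3.53 ± 0.22, edgeR adjusted p = 1.2e-07). tRNA-Ala-AGC-3 differed by -3.51 and tRNA-Thr-CGT-3 by -3.79, the latter with 2.20, 1.16 and 1.91 CPM against 22.2, 25.6 and 24.4. No library of the groups overlapped for these. tRNA-Thr-AGT-2 was less even in microglia, with 205, 99.6 and 112 CPM against 293, 306 and 277 and replicate 1 nearest to the astrocytes.

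**Figure D4:**
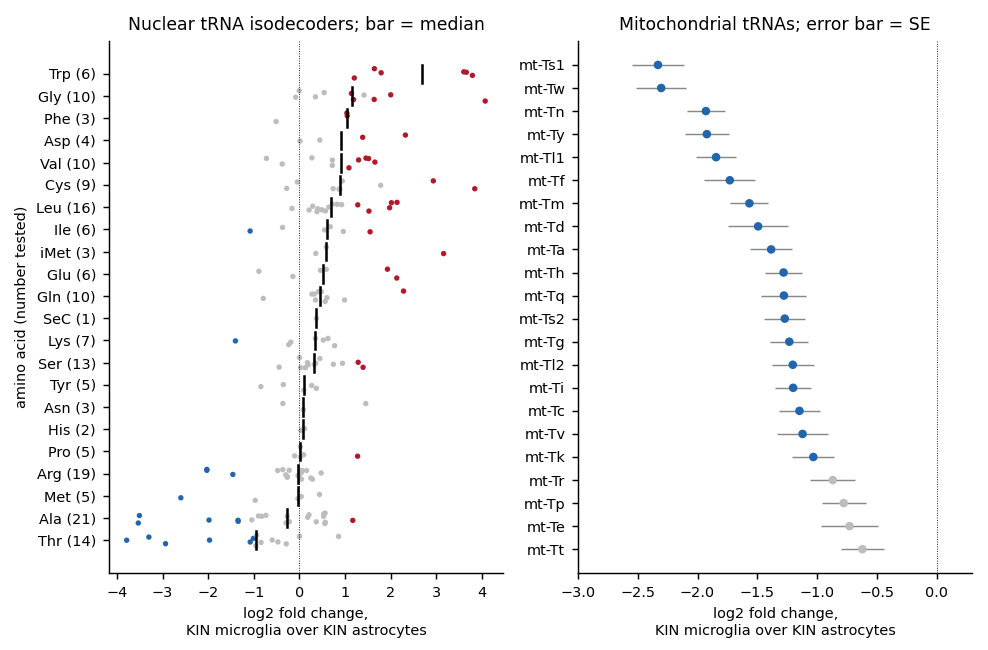
Log2 fold change, KIN microglia over KIN astrocytes, of 178 tRNA isodecoders by amino acid with a bar at each median (left) and of 22 mitochondrial tRNAs with SE bars (right), 1 point each (red higher, blue lower, grey not past the thresholds). All 6 tryptophan isodecoders lie above 1 and all 22 mitochondrial tRNAs lie below 0.

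Mitochondrial tRNAs, transcribed with the rest of the mitochondrial genome as long precursors, were lower in 18 of 22. mt-Ts1 had 144, 198 and 182 CPM in microglia and 645, 1025 and 972 in astrocytes (-2.33 ± 0.22, edgeR adjusted p = 4.5e-06), and mt-Tw differed by -2.30. The most abundant, mt-Ts2, had 4201 ± 763 against 10128 ± 1037 CPM. The remaining mt-Tr, mt-Tp, mt-Te and mt-Tt had values of -0.87 to -0.62. By strand, 12 of 14 were lower on the plus strand (median -1.25) and 6 of 8 on the minus strand (median -1.33). Of the 13 mitochondrial messenger RNAs 8 were lower, from mt-Nd3 at -1.55 to mt-Nd1 at -1.06, and the ribosomal RNAs mt-Rnr1 and mt-Rnr2 (-0.87) did not reach the fold threshold.

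Long transcripts with high counts often contained an annotated small RNA gene, to an extent that varied by class. Of the lincRNAs that passed with at least 50 CPM in the higher fraction, 11 of 12 contained an annotated small RNA gene in an exon, as did 5 of 13 protein-coding transcripts. Among all tested rows at that level the numbers were 29 of 45 lincRNAs and 17 of 41 protein-coding transcripts. For antisense transcripts it was 4 of 5 that passed against 12 of 18 tested at that level. The share was lower among those that passed for retained introns (2 of 6 against 117 of 135) and processed transcripts (1 of 4 against 12 of 25). C130071C03Rik, which contains Mir9-2, had 2.18, 3.93 and 3.54 CPM against 403, 485 and 426 (-7.03 ± 0.27). Vmp1-201, which contains Mir21a, differed by 1.59 beside 1.53 for miR-21a-5p, Glyctk-201, which contains Mir135a-1, by -5.49, and Grcc10-201, which contains Rnu7, by 1.65. Rows without such a gene included Cep295-214 (251 ± 12.9 against 922 ± 80.3 CPM, -1.88) and Ckap5-206 (-1.88), both retained introns, and Eml2-205 (-3.86). What the reads on these rows are was not tested.

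The same contrast in WT mice, which shares no library with the KIN contrast, gave 2016 of 6397 features past the thresholds (31.5%). Over the 4293 features tested in both, 82.8% had the same sign, and the fold changes are described by a Pearson r of 0.886. Of the features called in either, 1177 were called in both, 77.6% of each list, 418 higher and 758 lower in both and 1 in opposite directions. In KIN and WT, miR-146a-5p differed by 9.08 and 8.66, miR-223-3p by 6.76 and 7.24, miR-219a-2-3p by -8.35 and -7.26 and Snord17 by 2.60 and 2.91. miR-21a-5p had 1.53 ± 0.23 in KIN and 0.19 ± 0.32 in WT, and the test of the difference gave 1.41 (edgeR adjusted p = 0.17).

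**Figure D5:**
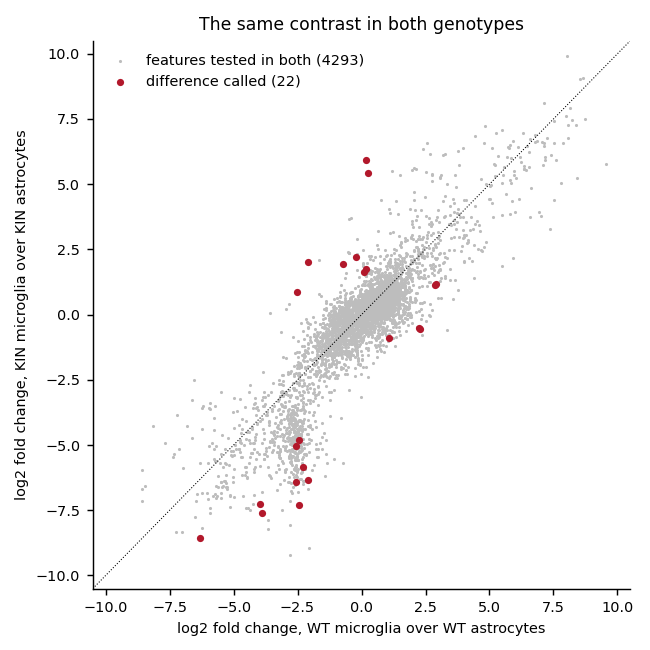
Log2 fold change, microglia over astrocytes, in WT (horizontal axis) and KIN mice (vertical axis), 1 grey point per feature tested in both. Of 4293 features 82.8% lie in the quadrants of equal sign, and the 22 red points, whose contrasts differed between the genotypes, lie off the dotted diagonal.

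A test of the difference between the KIN and WT contrasts, over 12 libraries and 7053 features, called 22 features (0.312%), 8 with a more positive and 14 with a more negative contrast in KIN, and 732 at an unadjusted p of 0.05. With library totals the split was 9 and 44. Xist counts also differed in pattern between the genotypes, with 33, 102 and 25 in WT astrocytes and 37, 36 and 41 in WT microglia beside the KIN counts given above, and their part in these differences was not tested. miR-335-5p, from an intron of the imprinted gene Mest, had 7.57, 6.00 and 6.87 CPM in KIN microglia, 201, 252 and 229 in KIN astrocytes, 6.39, 9.73 and 7.57 in WT microglia and 38.7, 65.0 and 48.0 in WT astrocytes. The difference of the contrasts was -2.38 (edgeR adjusted p = 0.0294), and the KIN astrocytes are the group that stood apart. miR-34a-5p, a p53 target, had 464, 605 and 527 CPM in KIN microglia, with all other libraries between 97.7 and 173, and a difference of 1.63. miR-210-3p, the hypoxia-induced miRNA, had 49.8, 72.6 and 84.4 CPM in KIN microglia and 7.16 to 16.6 elsewhere, a difference of 2.50. miR-200c-3p had 5.05 to 10.3 CPM in KIN microglia, 0 to 0.276 in KIN astrocytes and 2.97 to 12.9 in the WT libraries, a difference of 5.84 ± 1.00 that rests on few counts.

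These calls depended on single libraries. The number was 0 in edgeR without any 1 of 9 of the 12 libraries, and was 119 without astrocyte WT replicate 2, 112 without microglia KIN replicate 1 and 362 without microglia WT replicate 2. At an unadjusted p of 0.05 those fits gave between 550 and 1027 features. The direction of each of the 22 was kept in all 15 alternatives.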

How the data were processed

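Small RNA libraries of 18 samples (6 groups of 3) were compared from the deposited table of raw counts. Per the labels and the study's methods, the authors trimmed reads with Cutadapt 4.6 (FastQC 0.11.9, MultiQC 1.23), mapped them with Bowtie2 2.4.4 in local mode to miRNA, tRNA, piRNA, other noncoding and coding sequences in turn (mm39) and obtained counts with HTSeq 2.0.2, without strand. Kits carried molecular identifiers, but whether reads were collapsed by them is not given in the sources used here, so precision was taken from replicates. The authors' fold change and p-value columns and 36 further per-library columns were not used.

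Features with at least 5 counts in 2 of the 6 KIN glial libraries were fitted with edgeR 4.0.16 in R 4.3.3 (TMM scaling, quasi-likelihood test, Benjamini-Hochberg adjustment), checked on simulated data. The direction is microglia over astrocytes. SEs are the log2 fold change over the root of F and are approximate. Where 1 fraction had at most 3 counts in every library, the fold is a lower bound against 3 counts. Bounds cover counting error only. The labels number samples without naming separate animals for each, so p-values measure the spread between these samples.

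Members, lists and tests were chosen with earlier results of these data known. Named in each class of at least 10 features were the 3 largest differences per direction (5 for mature miRNAs) past the thresholds without overlap and with at least 50 CPM in the higher fraction, the 5 most abundant miRNAs per fraction and members of fixed lists. Of 146263 Ensembl features 145452 matched GENCODE vM39. Of 112 listed miRNAs 97 matched RefSeq. Alternatives were library totals, no filter, DESeq2 1.42.0, a 12-library fit, a replicate block and leaving out each library. Group counts under them were added after the data were seen.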

Additional observations from a re-analysis of the deposited data

Results flagged for a closer look

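The features below were singled out because the microglia to astrocyte contrast differed between KIN and WT mice in the edgeR interaction test over 12 libraries, at an adjusted p of at most 0.05. Each value is the KIN contrast minus the WT contrast on the log2 scale, with the range over 15 alternatives. In each alternative the direction was kept, and 6 of the 15 still called the feature (5 for the miR-34a pair).

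Gm24760-201, a Snhg14 snoRNA on chromosome 7, differed by -3.80 (-4.17 to -3.56), with 0.25 to 0.36 CPM in KIN microglia, 25.4 to 29.5 in KIN astrocytes, 10.3, 2.92 and 10.2 in WT microglia and 55.3, 29.9 and 65.8 in WT astrocytes. The summed Snhg14 snoRNAs had 1457, 353 and 1452 CPM of library total in WT microglia and 8488, 3579 and 8539 in WT astrocytes, so replicate 2 was lowest in both WT fractions.

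miR-92b-3p differed by -3.66 (-4.12 to -3.32) and its hairpin Mir92b-201 by -3.24 (-3.95 to -2.89). miR-92b-3p had 43.0, 7.13 and 45.9 CPM in WT microglia and 2.52, 2.75 and 4.32 in KIN microglia, with replicate 2 of the WT nearest to the KIN libraries.

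miR-335-5p differed by -2.38 (-2.81 to -2.22) and its hairpin Mir335-201 by -2.31 (-2.64 to -2.06), with 201 to 252 CPM of miR-335-5p in KIN astrocytes and 38.7 to 65.0 in WT astrocytes.

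miR-34a-5p differed by 1.63 (1.21 to 1.74) and its hairpin Mir34a-201 by 1.595 (1.21 to 1.69), with the KIN microglia above every other library. miR-210-3p differed by 2.50 (1.86 to 2.70), also with the KIN microglia highest.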

How the results depend on the processing

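The KIN contrast kept its size in the alternatives run. The number of features called was 1611 and ranged over 1325 to 1749 when 1 library was left out and 1340 to 1598 in the other alternatives. The matching ranges were 239 to 273 and 239 to 293 for 265 mature miRNAs, 42 to 61 and 47 to 54 for 53 tRNA isodecoders, and 1514 to 1958 and 1536 to 2112 for 1843 genes with transcripts summed. Scaling by library totals moved the median of all features from 0.05 to -0.09. Of 147 named features past the thresholds 140 stayed past them throughout and none changed direction. miR-204-5p, miR-23b-3p, miR-200b-3p, Aopep-209, Aopep-205, piR-23501 and Rpl10-209 did not in at least 1 alternative. The WT contrast gave 1437 to 2134 with 1 library left out and 1848 with library totals, against 2016.

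The difference of the contrasts was unstable. In place of 22 features (8 higher and 14 lower), library totals gave 53 (9 and 44), no filter on low counts 108 (8 and 100), a replicate block 75 (11 and 64) and leaving out 1 library 0 to 362. The cause was not tested. Classes whose shares did not overlap numbered 5, and 5 to 9 with 1 library left out, 9 without microglia replicate 1.

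Replicate numbers are shared between the fractions. The study took the fractions in turn from a single brain, but the labels do not tie the numbers to animals. In KIN replicates 1 to 3, Xist had 4, 44 and 61 counts in microglia and 5, 47 and 83 in astrocytes. Y-linked genes had 10, 4 and 2 counts against 7, 4 and 3. Deviations of equal-numbered KIN libraries from their group means correlated at -0.324, -0.249 and -0.073 over 2324 features. With 3 libraries per group and microglia replicate 1 apart, these correlations cannot decide on pairing. The main fit did not take the numbers as pairs. The fit with a replicate block called 1413 features, 534 higher and 879 lower, 244 mature miRNAs, 47 isodecoders and 1536 genes.

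With 3 libraries per fraction, features below 5 counts in 2 libraries were not analysed here, and differences of features near 3 counts were bounded, not measured.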
